A study of Caenorhabditis elegans with 2 samples.

Results

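The genes described here are ced-7, ced-1, ced-2, ced-5, ced-6, ced-10 and ced-12 of Caenorhabditis elegans, which act in the engulfment of dying cells, among 19973 protein-coding genes on the nuclear chromosomes. They were chosen by their names together with the measured signal of the strong binding peak inside ced-7, which was known at that time, so all signals below are descriptions and no test was made on them. A region of the deposited list was counted for a gene when its summit lay in the gene or within 1000 bp of the gene's start. By this rule the 7 genes held 39 of 71547 ranked regions.

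Binding of NFYA-2 was measured by chromatin immunoprecipitation followed by sequencing (ChIP-seq) with an anti-GFP antibody. All animals were of strain RW12238, which carries the allele st12238[nfya-2::TY1::EGFP::3xFLAG], a CRISPR insertion of a TY1, EGFP and 3xFLAG tag at nfya-2 itself. They were young adults, collected as whole organisms at 64 hours after synchronisation of bleached, starved L1 larvae, and the 2 libraries are labelled biological replicates 1 and 2 of this single group. No untagged animals, other strain or other stage were analysed here, and chromatin of all tissues was mixed, so strong binding in few cells and weaker binding in many cannot be told apart.

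NF-Y is a complex of A, B and C subunits that binds the pentamer CCAAT, and the A subunit makes the contacts that read it. In C. elegans, apoptotic cells are cleared by neighbouring cells through a pair of partly redundant pathways. In the first, the engulfment receptor CED-1 recognises the corpse with the help of the ABC transporter CED-7, and the adaptor CED-6 acts downstream of it. In the other, the adaptor CED-2, the DOCK180 homologue CED-5 and the ELMO homologue CED-12 activate the small GTPase CED-10, a Rac homologue, which reorganises actin in the engulfing cell.

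The sequence around the ced-7 peak is shown because it holds a pair of extended CCAAT sites, and the ced-5 peak because it is the other strong peak at these genes. Sequences were read from the WBcel235 reference (ce11), plus strand, 5′ to 3′. In the ced-7 sequence, chrIII:9570974-9571160, capitals mark matches to the extended consensus RRCCAATSR, where R stands for A or G, and S for C or G.
ced-7 intron: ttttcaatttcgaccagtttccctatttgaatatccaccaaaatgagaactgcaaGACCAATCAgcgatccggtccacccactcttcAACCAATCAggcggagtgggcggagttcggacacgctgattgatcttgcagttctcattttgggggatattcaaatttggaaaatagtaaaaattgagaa
In the ced-5 sequence, chrIV:10483807-10484046, capitals mark the core CCAAT.
ced-5 promoter: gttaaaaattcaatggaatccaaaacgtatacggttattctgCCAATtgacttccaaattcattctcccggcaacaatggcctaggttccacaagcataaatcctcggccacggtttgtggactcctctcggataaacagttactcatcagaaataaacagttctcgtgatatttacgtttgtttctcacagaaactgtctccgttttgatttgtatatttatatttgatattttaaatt

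The ced-7 peak was the strongest region at any of the 7 genes. Its merged region, chrIII:9571058-9571126, had a signal of 227, in the peak caller's own unit for the reads of both replicates. In the list of replicate 1 alone the overlapping region had a signal of 114, and in that of replicate 2 a signal of 111. These values lay close together: their ratio of 1.03 was smaller in only 14 of the 281 conservative peaks, whose median ratio was 1.24. The conservative list is the authors' thresholded list for the series. The irreproducible discovery rate (IDR) of a region is given here as its global value. It estimates the share that do not repeat between the inputs compared, among that region and all those ranked as more reproducible. No peak in the conservative list had an IDR above 0.00999. The ced-7 peak had an IDR of 7.18e-05.

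All 4 thresholded lists held the ced-7 peak. It ranked 7th among the 281 conservative peaks and 7th among the 435 peaks of the other series list. It ranked 5th of 92 peaks in the thresholded list of replicate 1 and 9th of 90 in that of replicate 2. In the whole ranked list it stood 26th, and 19 of the 25 regions above it were in none of the thresholded lists.

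The peak lay near the 3′ end of ced-7, far from any annotated gene start. ced-7 (WBGene00000421) occupies chrIII:9570390-9580089 on the minus strand, a length of 9700 bp, and the merged summit was 9007 bp from its start. The summit fell in the last intron, chrIII:9570883-9571422, which is 540 bp long and has the same bounds in all 5 annotated transcripts. It is intron 14 in 4 of the transcripts and intron 13 in the other one. The nearest start of any annotated gene was that of C48B4.13, on the plus strand at chrIII:9568751-9570460, whose end overlaps that of ced-7. The summit was 2331 bp from that start and 622 bp beyond the end of C48B4.13. C48B4.3, the gene next to the start of ced-7, begins 11306 bp from the summit. Among the 77 conservative peaks over 2000 bp from every coding gene start, the ced-7 peak had the highest signal.

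**Figure D1:**
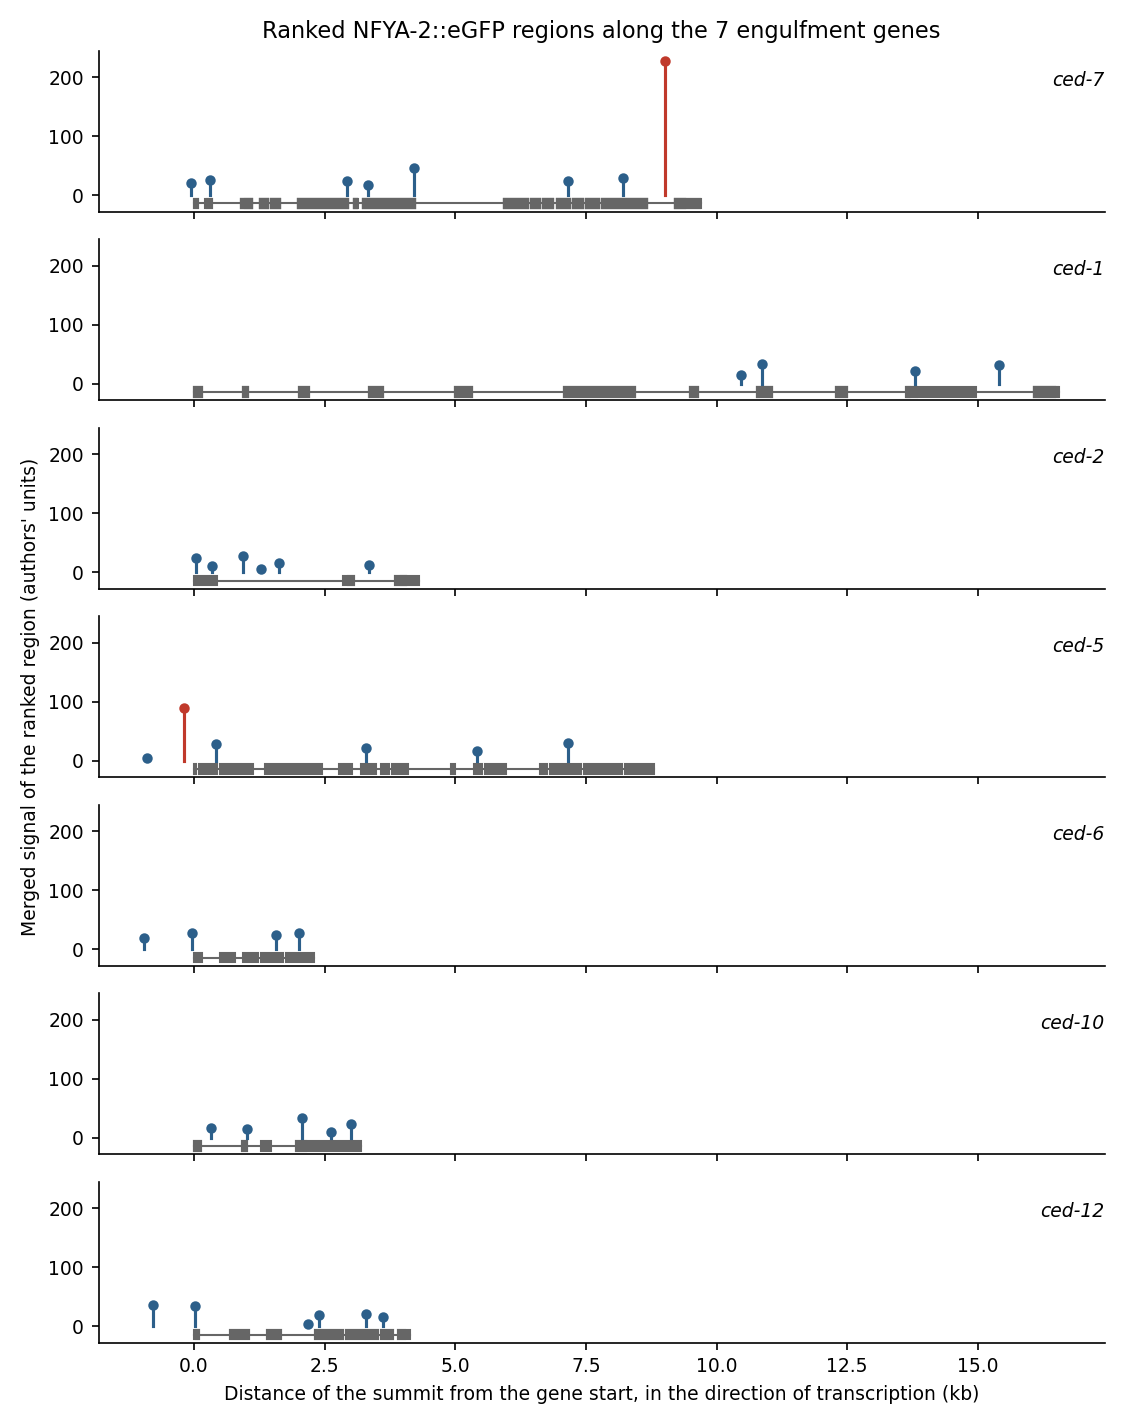
Merged signal of each ranked region (height, authors' units) against the distance of its summit from the gene start in kb, with exons as grey boxes below and conservative peaks in red. The ced-7 intron peak reaches 227 near the end of the gene, the ced-5 peak reaches 88.9 next to the gene start, and no other region exceeds 45.9.

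The merged region at ced-7 was 69 bp wide, and none of the conservative peaks was narrower. A width of 240 bp was the commonest and was shared by 272 conservative peaks and by the other 38 regions at the 7 genes. Only 8 conservative peaks were narrower than that, ced-7 included, and all 8 were among the 10 strongest. Those nearest to C55A6.12 and K08F11.1 were 76 and 70 bp wide, so a narrow region was not particular to ced-7. The overlapping regions of the single replicates were wider, chrIII:9570989-9571218 in replicate 1 and chrIII:9570943-9571178 in replicate 2. Their summits lay 43 bp apart, at 22 bp to the right of the merged summit on the plus strand in replicate 1 and 21 bp to the left in replicate 2.

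Both extended sites lay on the plus strand, opposite to the coding strand of ced-7, and on the same side of the merged summit. The site AACCAATCA, chrIII:9571061-9571069, was centred 17 bp to the left of that summit and lay inside the merged region. The site GACCAATCA, chrIII:9571029-9571037, was centred 49 bp to the left and lay outside it. The sites began 32 bp apart. Measured from the summits of the single replicates, the centre of AACCAATCA was 39 bp to the left in replicate 1 and 4 bp to the right in replicate 2. The summit of replicate 1 thus lay farther from both sites than that of replicate 2.

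An extended site lay within 100 bp of the summit in 31 of 281 conservative peaks (11.0%). Of these peaks, 12 held 2 or more sites, counted on either strand and at any spacing. Among all 71547 ranked regions, 1886 (2.64%) held an extended site and 219 held 2 or more. The ced-7 peak was the 6th strongest of the 31 and the 2nd strongest of the 12, behind a peak of 2245 located 204 bp upstream of Y22D7AL.10. The median signal was 76.2 for conservative peaks with an extended site and 70.3 for those without, so the ced-7 peak lay well above both medians.

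The ced-7 sequence also forms an inverted repeat. Aligned to its own reverse complement by BLAST, the stretch of 187 bp printed above matched itself with 78.1% identity over 192 alignment columns. The centre of this repeat was 15 bp to the left of the merged summit. The site GACCAATCA has a counterpart in the opposite arm, read on the minus strand at chrIII:9571097-9571105, which is GATCAATCA. With positions counted from 1 at the 5′ end of the site, the counterpart differs by C3T, which removes the CCAAT.

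**Figure D2:**
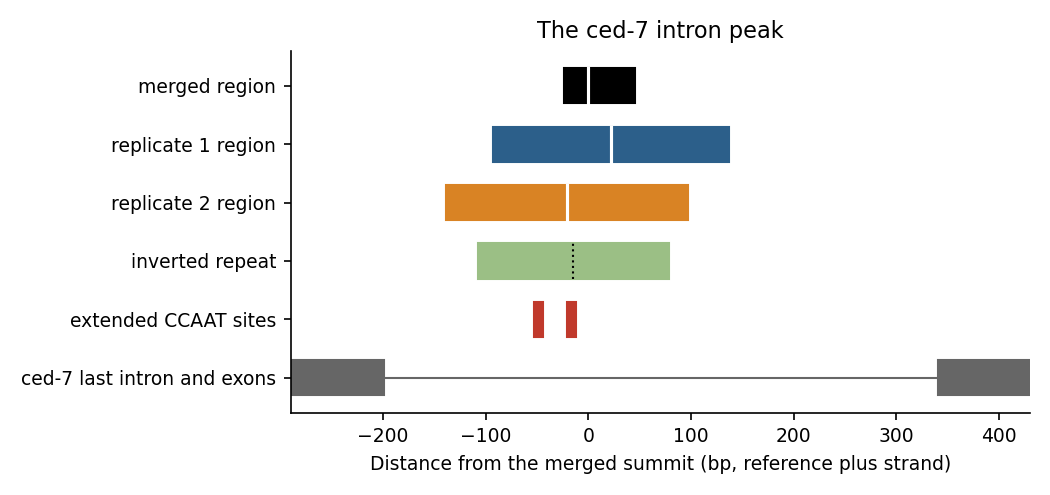
Position of the merged region and of the regions of each replicate around the ced-7 peak, in bp from the merged summit on the plus strand; white ticks are the summits, the dotted line is the centre of the inverted repeat, and red boxes are the extended sites. Both sites lie inside the region of each replicate, and the merged region covers the site nearer to its summit and not the other one.

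Related segments were searched in the whole genome with the 300 bp around the summit, a search chosen after the ced-7 sequence had been seen. At an E-value of at most 0.001, 514 other segments were found, with a median length of 90.5 bp and a median identity of 80.0% in their best alignment. Introns held 368 of them, exons 32 and intergenic sequence 114, and chromosome III carried 193. None of the other 6 engulfment genes contained one. The query was the ced-7 sequence itself, and the share of all coding genes that contain a segment was not counted. Nothing is therefore read from this absence.

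Most related segments carried the extended site, and a minority carried a ranked summit. An extended site was present in 478 of the 514 (93.0%), and 345 held at least 2. Since the query contains both sites, the search itself favours segments that hold them: with both sites masked it returned 139 segments, of which 75.5% held an extended site. A ranked summit lay in 85 of the 514 segments (16.5%), with signals from 5.25 to 81.3 and a median of 31.2. The ced-7 signal was thus above that of all 85. By the midpoint, 31.3% of the segments lay in a ranked region, and ranked regions cover 17.0% of the genome.

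Conservative peaks overlapped 10 of the related segments, 3 of which lay under a single peak, so that 8 conservative peaks other than that of ced-7 were involved. Their signals ran from 59.2 to 81.3 with a median of 72.4, close to the median of 71.1 over all conservative peaks. Segments with the midpoint inside a conservative peak made up 1.95% of the 514, and conservative peaks cover 0.0662% of the genome. Together with the ced-7 peak, they account for 9 of the 31 conservative peaks with an extended site and for 8 of the 12 with several. The query that found the segments contains the sites counted here. With both sites masked, 2 segments in place of 10 overlapped a conservative peak. With the unmasked query at an E-value of at most 1e-10, 4 did. The family held 1022 of the 11941 extended sites of the genome (8.56%), and 0.402% of all extended sites lay in conservative peaks.

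The segments under 3 of these peaks, picked after their values were seen, are printed for comparison with the ced-7 sequence. They lie in introns of plc-4, srt-47 and fcd-2, and capitals mark extended sites on either strand. They come from the plus strand at chrIV:7510962-7511063, chrIV:15049822-15049963 and chrIV:15027482-15027620.
plc-4 intron: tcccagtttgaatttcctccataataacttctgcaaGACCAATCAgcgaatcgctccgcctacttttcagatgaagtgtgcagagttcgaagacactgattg
srt-47 intron: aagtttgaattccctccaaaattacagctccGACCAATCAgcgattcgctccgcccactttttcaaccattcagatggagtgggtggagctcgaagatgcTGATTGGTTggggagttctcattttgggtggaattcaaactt
fcd-2 intron: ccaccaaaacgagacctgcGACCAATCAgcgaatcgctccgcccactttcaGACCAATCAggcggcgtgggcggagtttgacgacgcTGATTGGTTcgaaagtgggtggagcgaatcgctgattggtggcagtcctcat
The peak at plc-4, which encodes a phospholipase C, had a signal of 81.3, the peak at srt-47 a signal of 76.2 and the peak at fcd-2, the homologue of the Fanconi anaemia protein FANCD2, a signal of 65.6. The srt-47 and fcd-2 segments each hold an extended site on the minus strand, and the ced-7 sequence holds none there. The plc-4 segment holds 1 extended site, but 2 lay within 100 bp of the summit of its peak. The other site there lies outside the printed segment. Among related segments with at least 2 extended sites, 154 had them on both strands and 191 on a single strand, as ced-7 does.

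Since the peak lies in repeated sequence, the share of words that occur once in the genome was counted in the 201 bp around each segment's middle. For words of 31 bases this share was 98.8% at ced-7. Its median was 95.9% in the segments with a ranked summit and 98.8% in those without. For words of 75 bases it was 100% at ced-7 and 100% in the median of either kind of segment. Of 217 segments with every 31-base word unique, 25 (11.5%) held a ranked summit and 3 overlapped a conservative peak. The read length is not given in the sources used here, and the part of read mapping in these signals was not tested.

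**Figure D3:**
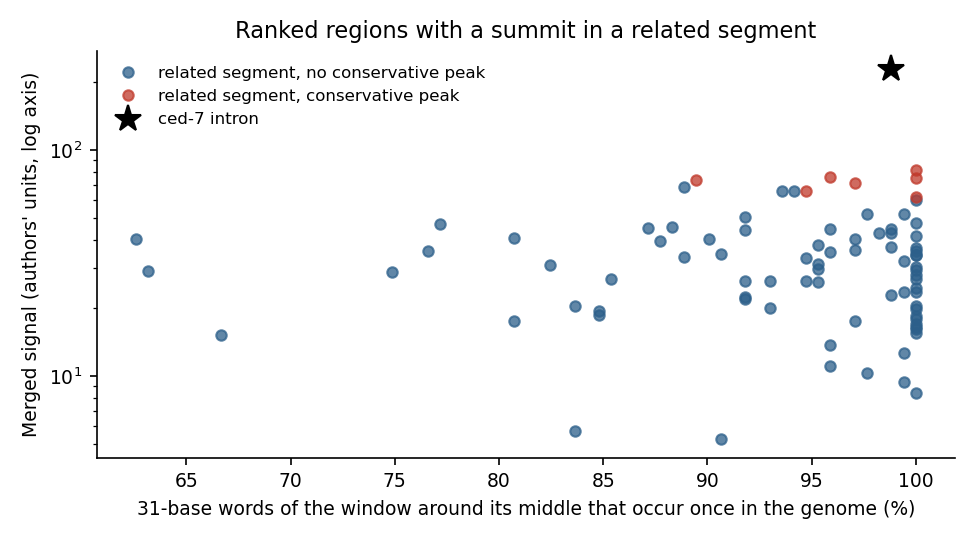
Merged signal (log axis, authors' units) of ranked regions with a summit in a related segment against the percentage of 31-base words in its 201-bp window that occur once in the genome. The ced-7 intron stands at 227, the 85 other segments lie between 5.25 and 81.3, and both high and low signals occur where all words are unique.

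The remaining 7 regions at ced-7 were much weaker. Their merged signals were 45.9, 29.6, 26.1, 24.7, 24.2, 20.7 and 18.1. Of these, 6 summits lay in exons and 1 was 57 bp upstream of the gene start. The strongest, in an exon 4203 bp from the start, had input signals of 24.1 and 20.6 and an IDR of 0.125. None was in a thresholded list. One, in an exon 308 bp from the start with a signal of 26.1, held an extended site, GGCCAATCG on the minus strand, centred 70 bp from its summit. The promoter of ced-7 held only regions near the median of 23.0 for the whole ranked list.

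ced-5, which encodes the DOCK180 homologue, was the only other gene of the 7 with a thresholded peak. ced-5 (WBGene00000419) lies at chrIV:10484110-10492913 on the plus strand, 8804 bp long. Its peak had a merged signal of 88.9, with 44.9 in the list of replicate 1 and 42 in that of replicate 2, a ratio of 1.07. The summit was 183 bp upstream of the ced-5 start and 270 bp upstream of the start of F01D4.5, a gene on the opposite strand, so the peak lies between these divergent starts.

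The ced-5 peak passed in 3 of the 4 thresholded lists. It ranked 58th among the conservative peaks and 119th among the ranked regions, with an IDR of 0.00105. In the replicate 1 list its IDR was 0.00215 and the peak was in the thresholded list. In the replicate 2 list its IDR was 0.0105, just above the highest value of 0.00969 found in that replicate's thresholded list, and the peak was not in it. No extended site lay within 100 bp of the summit, and the single core CCAAT in the printed sequence was centred 76 bp to the left of the summit. The other 5 regions at ced-5 had signals of 30.2, 29.2, 21.3, 16.7 and 5.09.

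The 7 genes thus included 2 with a conservative peak, where the share over all protein-coding genes under the same assignment was 1.30%. The same 2 genes had a peak in the other series list, in which 2.00% of protein-coding genes did. Nothing is read from these shares, since the ced-7 peak was used to choose the genes.

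Genes of the CED-1 pathway other than ced-7 had no thresholded peak. ced-1, the receptor gene, is at chrI:11851554-11868105 on the minus strand and is the longest of the 7 at 16552 bp, and it held 4 regions. Their merged signals were 34, 32.4, 22.4 and 14.9, and all 4 lay over 10 kb from the gene start. The strongest, in an exon 10861 bp from the start, had input signals of 13.0 and 19.5 and an IDR of 0.504, and 14.3% of all ranked regions were stronger. The overlapping region had 24.7% of the replicate 2 list above it and 58.5% of the replicate 1 list. The strongest ced-1 region of the replicate 1 list was a different one, with a signal of 22.4 and 6.45% of that list above it. It overlapped none of the 4 merged regions. No region lay at the ced-1 promoter within 1000 bp of the start.

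ced-6, the adaptor gene, is at chrIII:5595771-5598061 on the plus strand and is the shortest of the 7 at 2291 bp. Its 4 regions had signals of 28.0, 27.2, 23.8 and 19.4. The second of these had its summit 43 bp upstream of the gene start, with input signals of 16.3 and 11.8 and an IDR of 0.563. The strongest lay in an exon 2011 bp from the start, and its input signals of 9.03 and 18.4 differed 2.04-fold. Its IDR was 0.835, and it overlapped no region in the ranked list of either replicate.

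Genes of the CED-2, CED-5, CED-12 and CED-10 pathway other than ced-5 were likewise without a thresholded peak. ced-2, the CrkII homologue, at chrIV:1597318-1601621 on the plus strand, held 6 regions with signals of 26.8, 23.8, 16, 11.9, 10.1 and 5.97. The one nearest its start, at 38 bp, had the signal of 23.8 and input signals of 10.2 and 15.1. The strongest ced-2 region lay in an intron 947 bp from the start, with input signals of 10.8 and 15.1 and an IDR of 0.643. In the 201-bp window at this region, 45.0% of the 31-base words and 100% of the 75-base words occur once in the genome. The part of read mapping in its signal was not tested. ced-10, the Rac gene, at chrIV:3506328-3509527 on the minus strand, held 5 regions with signals of 34.4, 24.1, 16.1, 14.9 and 10.4. The strongest lay in an exon 2076 bp from the start, with input signals of 11.5 and 20.7.

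ced-12, the ELMO homologue, at chrI:10222881-10227009 on the minus strand, held 6 regions with signals of 36.0, 35.2, 21.3, 18.5, 15 and 4.07. The first lay 778 bp upstream of its start and the second 25 bp inside it, with input signals of 13.0 and 18 and of 11.7 and 26.3. Both also lie in or at csnk-1, chrI:10226986-10233386, whose 3′ end overlaps the ced-12 start. The regions with signals of 18.5 and 4.07 overlap each other and carry the same input signals of 10.5 and 17.5, so they are not separate measurements.

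**Figure D4:**
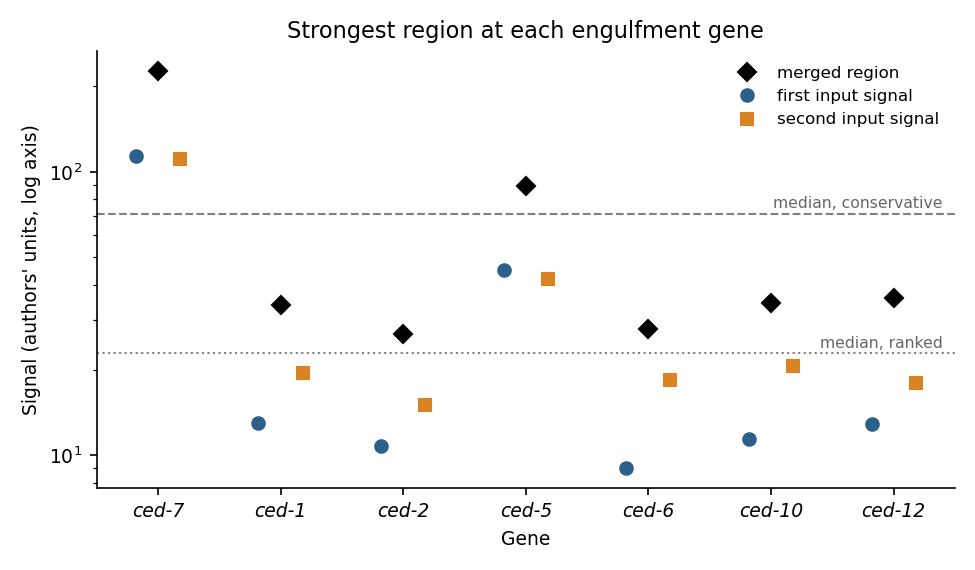
Merged signal (diamonds) and the 2 input signals (circles and squares) of the strongest region at each gene, on a log axis in the authors' units; dashed and dotted lines are the medians of the conservative peaks and of all ranked regions. ced-7 and ced-5 lie above the conservative median of 71.1 with close input signals, and the other 5 genes lie between 26.8 and 36.0.

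Against the strongest region at each protein-coding gene, the members fell into 2 classes. Of 17672 coding genes with at least 1 ranked region, 0.0453% had a stronger top region than ced-7 and 0.328% a stronger one than ced-5. For ced-12 the share was 30.5%, for ced-10 36.3%, for ced-1 38.2%, for ced-6 63.5% and for ced-2 68.0%. The median top signal of all these genes was 31.1, within the range of 26.8 to 36.0 of those 5 members. Longer genes hold more regions by their size, and the longest member, ced-1, held as few as the shortest, ced-6.

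**Figure D5:**
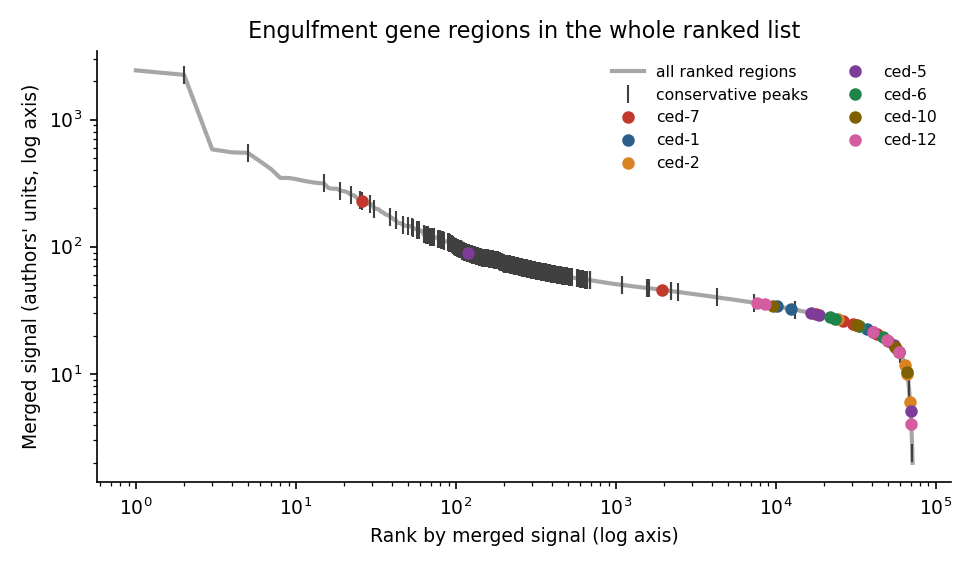
Merged signal against rank for all 71547 ranked regions (both log axes), with the conservative peaks as ticks and the 39 regions at the 7 genes as coloured points. The ced-7 intron peak is at rank 26 and the ced-5 peak at rank 119, the next region is at rank 1940, and the rest lie from rank 7675 downward.

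The 37 regions outside the thresholded lists had a median signal of 22.4, with a range from 4.07 to 45.9, against a median of 23.0 over the whole ranked list. Extended sites were found within 100 bp of the summit in 2 of the 39 regions, both at ced-7, and in 2.64% of all ranked regions. The core CCAAT was found in 18 of the 39 and in 37.8% of all ranked regions. The shorter word RRCCAAT was present in 7 of the 39, of which 2 were at ced-7 and 1 each at ced-1, ced-2, ced-5, ced-6 and ced-12, and in 10.2% of all ranked regions. The GC content of the 201 bp around the summit was 42.3% at the ced-7 peak and 40.3% at the ced-5 peak. Its median over the 39 regions was 34.8%. The mean was 43.4% over the conservative peaks and 38.8% over a sample of the ranked regions, and a median is not directly comparable with these means.

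Among conservative peaks of similar signal, ced-7 had the most distant gene start but for pxn-1. The 5 next above it had signals of 547 at mdt-26, a Mediator subunit gene, 315 in an intron of the chaperone gene hsp-90, 276 at the chaperone gene hsp-3, 257 at the calreticulin gene crt-1 and 234 in an intron of mdt-26. The 5 next below had signals of 217 at rpl-3, 199 at C55A6.12, 170 at K08F11.1, 163 in an intron of pxn-1 and 149 at rpa-2, where rpl-3 encodes a ribosomal protein and rpa-2 a subunit of replication protein A. The nearest coding gene start was at most 743 bp away in 9 of these 10, and 5664 bp away for the peak in pxn-1, which encodes a peroxidasin. Of the 37 conservative peaks with the summit in an intron and in no exon of any gene, ced-7 had the 3rd highest signal, and 8 of the 37 held an extended site.

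Other engulfment genes, phagosome maturation genes, cell death genes and ABCA transporter genes were also examined. These lists of genes were written with earlier results of these data known. Of 65 matched genes in 4 lists, 61 had a ranked region, as did 17672 of all 19973 coding genes. A conservative peak was found at 2 of the 65, a share of 3.08% beside the 1.30% of all coding genes. Of 20 other engulfment genes, 1 had a conservative peak: psr-1, the homologue of the phosphatidylserine receptor PSR, with a signal of 57.6 and an IDR of 0.00959. The psr-1 peak lay 609 bp upstream of the psr-1 start and 238 bp inside F29B9.5, whose start was nearer. The next 2 by signal were wve-1, an actin regulator of the WAVE complex, at 50.7, and dyn-1, the dynamin gene, at 49.3. Neither was in a thresholded list of the series.

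None of 22 phagosome maturation genes had a thresholded peak in the series lists, where 1.30% and 2.00% of all coding genes had one, so the count is near the background. The strongest regions there were at rab-5, a GTPase of early endosomes, at 57.1 with an IDR of 0.0143, at unc-108, a Rab2 homologue, at 53.1, and at vps-18, a vesicle tethering gene, at 46.9. Of 19 cell death genes, icd-1, the beta subunit of the nascent polypeptide-associated complex, had a conservative peak of 69.2. Its summit lay 998 bp into icd-1, at the end of the gene, and 82 bp upstream of the start of C56C10.7. The caspase gene ced-3 followed at 45.0 and wah-1, the homologue of apoptosis-inducing factor, at 44.6.

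The other ABCA transporters are relatives of CED-7. Of 6 ABCA transporter gene names, 4 matched a protein-coding gene, and none had a thresholded peak in the series lists, beside shares of 1.30% and 2.00% of all coding genes in these lists. Their strongest regions were 37.2 at abt-4, 36.7 at abt-2, 34.8 at abt-5 and 25.4 at abt-1, against 227 at ced-7.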

How the data were processed

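The authors deposited peak lists made from ChIP-seq reads of 2 libraries; per the text deposited with them, coordinates follow assembly ce11, and filtered alignments and a control went into the lists. For aligner, peak caller, versions and read length, nothing is given in the sources used here. The deposited signal of a region is a value from the peak caller and was used to rank and describe regions within a list. In the deposited ranked lists a further column holds −log10 of the global IDR, from which the IDR was computed. The series ranked list carries 1 signal from each of 2 inputs: those in its first input column equalled a signal in the replicate 1 list in 63.3% of regions and in its second column one in the replicate 2 list in 48.2% (to 5 decimals), against 2.89% and 2.21% the other way round. No counts were in the files, so library depth is unknown and no counting interval was given.

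Genes came from the Ensembl annotation of WBcel235, whose chromosome lengths cover all regions. A gene was named if it was one of the 7 members, if it flanked the ced-7 peak, if its peak was among the 5 conservative peaks above or below it in signal, or if, in a wider list, it had a thresholded series peak or one of the 3 highest signals. The genes plc-4, srt-47, fcd-2, Y22D7AL.10 and abt-1 fall outside this rule and were chosen after their values were seen. F01D4.5, csnk-1, F29B9.5 and C56C10.7 are also outside it and are named as neighbours of a member or of a described peak. The members and lists were chosen with earlier results of these data known. Sites were searched on both strands, whole within 100 bp of the summit. Related segments were found with blastn 2.17.0 (word size 11, no low-complexity filter), and hits within 20 bp were merged. The site and assignment searches were tested on simulated data. Python 3.11.15 with pandas 2.3.3 was used. With 1 group and members chosen on the signal, no test was made.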

Additional observations from a re-analysis of the deposited data

How the results depend on the processing

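Assignment distance, list and word length were varied one at a time. The ranked regions at the 7 genes numbered 39, and 62 in the other series list; each replicate's own list gave 27 to 29. Members with a thresholded peak numbered 2, but 1 when the summit had to lie inside the gene, which leaves out ced-5, and 1 to 2 in the lists of single replicates, where the replicate 2 list lacks ced-5. The share of ranked regions above the ced-7 peak was 0.0349%, and 0.00957% among intron regions; single replicates gave 0.0445% to 0.0557%. Member regions with an extended site numbered 2, but 1 within 50 bp of the summit, 7 with RRCCAAT and 18 with CCAAT alone. Coding genes with a thresholded peak made up 1.30%, but 0.631% with the summit in the gene, 2.00% in the other series list and 0.401% to 0.456% in single replicates. Segments related to the ced-7 sequence, with searches chosen after seeing the data, numbered 514, but 295 at an E-value of at most 1e-10 and 139 with both sites masked in the query, and those under a conservative peak fell from 10 to 4 and 2. The strongest region at each other gene was taken in each list on its own, and only at ced-5 was it the same place in every list. The share of regions above it differed between the lists. In the replicate 1 and replicate 2 lists it was 0.296% and 0.445% at ced-5 (merged list 0.165%), 6.45% and 24.7% at ced-1 (14.3%), and 75.8% and 52% at ced-2 (34.3%). It was 30.0% and 53.1% at ced-6 (30.3%), 39.9% and 19.5% at ced-10 (13.4%), and 71.2% and 5.80% at ced-12 (10.7%). No paired analysis was possible because there is 1 group. The 2 replicates and the unknown depth limit the precision of each signal, and without untagged animals the background of the antibody at these sites was not analysed here.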
